A study of Mus musculus with 8 samples.

Results

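Voltage-gated sodium and calcium channel genes were examined in the mouse hippocampus after intranasal KU55933, a small-molecule blocker of the DNA damage kinase ATM. They were taken by symbol, as every gene whose name begins with Scn and a digit, Cacna1 or Cacna2d, or is one of Cacnb1 to Cacnb4. Described here are 29 of the 19558 genes in the table, of which 18 encode pore-forming subunits and 11 encode auxiliary subunits. The estimated counts of their 195 listed transcripts were summed per gene.

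A voltage-gated sodium or calcium channel is built around 1 large pore-forming protein that senses membrane voltage and lets its ion through. In neurons, sodium channels start and carry the action potential, and beta subunits shape their gating and tether them to the cell surface and to neighbouring proteins. Calcium channels turn depolarisation into calcium entry: L-type channels signal to the nucleus, P/Q- and N-type channels trigger transmitter release, R-type channels act in dendrites and spines, and T-type channels open near rest and favour burst firing. Cytoplasmic beta subunits and extracellular alpha2delta subunits of calcium channels bring the P/Q-, N-, R- and L-type pores to the membrane, whereas T-type pores do not need them.

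The mice were wild type, of the strain labelled C57BL/6 KP, and were treated at postnatal day 40 under anesthesia. The vehicle group (4 libraries) received 4% DMSO in saline and the KU55933 group (4 libraries) a stated 7.5 mg/kg of the drug, named U55933 in one label, both through the nose. The labels count 4 mice per group but do not say that each library is 1 mouse, and the sources used here do not give the interval between dosing and collection. Each sample is labelled hippocampus, although the library protocol states input amounts for hypothalamus and PFC instead.

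Library totals were 40586998 to 46630341 estimated counts in vehicle and 34190440 to 37499003 in KU55933. The libraries also differed by the GC content of genes. The slope of a library's log2 level on GC content, relative to the mean of all libraries, was 0.136 to 0.273 per 10 percentage points in vehicle and -0.348 to -0.117 in KU55933. KU55933 libraries thus read GC-rich genes lower, and counts of called genes and each called channel gene are given below without and with an offset for the library's own trends on GC content and length. This leaves out cell type markers, whose calls are given without the offset only. Values that do not name the offset are without it. KU55933 libraries 1 and 2 held 1162 and 1239 CPM of 6 choroid plexus markers, against 50.4 to 110.9 CPM in the other libraries.

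Sequences are shown for 2 genes that had a called transcript with a short coding segment absent from the main one: Cacnb1 and Scn8a. Both were read from GENCODE mouse release M21 on GRCm38, 5′ to 3′ on the gene's strand. The first is the coding end of Cacnb1 (chr11:98005024-98005128, minus strand, in capitals) that ENSMUST00000107562 has and the main transcript lacks, after shared coding sequence in lower case. These bases belong to a last stretch of 204 bases, in place of which the main transcript has 1855 bases that also hold coding sequence. The segment is shown because this transcript had 0 counts in the 4 KU55933 libraries.
Cacnb1 alternative coding end: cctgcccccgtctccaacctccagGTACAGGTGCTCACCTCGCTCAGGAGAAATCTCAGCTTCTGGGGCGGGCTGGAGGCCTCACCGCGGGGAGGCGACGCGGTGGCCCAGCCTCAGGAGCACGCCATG

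For Scn8a, 30 coding bases (chr15:100984046-100984075, plus strand, in capitals) are present in ENSMUST00000108909 and absent from the main transcript ENSMUST00000108910, with 24 shared bases on each side in lower case. They are shown because ENSMUST00000108909 fell while the main transcript did not pass the test.
Scn8a exon extension: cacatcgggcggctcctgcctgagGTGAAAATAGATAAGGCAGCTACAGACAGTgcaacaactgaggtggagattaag

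Of the 29 genes, 26 passed the filter on low counts, 15 of the 18 pore genes and all 11 auxiliary genes. The other 3, Cacna1f (retinal L-type), Scn4a (skeletal muscle) and Scn11a (sensory neurons), had 0 to 7 counts in any library and were not tested. The 2 groups were compared with edgeR (quasi-likelihood, two-sided, n = 4 per group) and p-values were adjusted by Benjamini-Hochberg over 15481 genes, and a gene was called at an adjusted p under 0.05. Among pore genes 2 fell (Cacna1a, Cacna1h) and none rose. Among auxiliary genes 2 fell (Cacnb1, Cacnb3) and 1 rose (Cacnb4). Over all genes 21.6% were called, 14.6% lower and 6.92% higher. No pore gene rose in this test, while 7 of the 15 had an unadjusted p under 0.05 in either direction, and DESeq2 called 1 higher. Over all genes tested, 5846 of 15481 had an unadjusted p under 0.05.

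The median log2 change of the pore genes was -0.10 and that of the auxiliary genes 0.04, beside 0.01 for all genes tested. With the GC and length offset none of these 5 calls was made. Then 1 pore gene, Cacna1i, was called higher and no auxiliary gene was called, beside a background of 1.96% of all genes (1.29% lower, 0.672% higher). At an unadjusted p under 0.05 the offset fit had 3 pore and 3 auxiliary genes, beside 2460 of all 15481 genes tested. The offset medians were -0.12 for pore genes, 0.11 for auxiliary genes and 0.01 for all genes. Vehicle and KU55933 values did not overlap in 3 pore genes (2 lower, 1 higher in KU55933) and 5 auxiliary genes (2 lower, 3 higher). Over all genes tested the groups did not overlap in 26.7% (15.9% lower and 10.7% higher in KU55933).

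**Figure D1:**
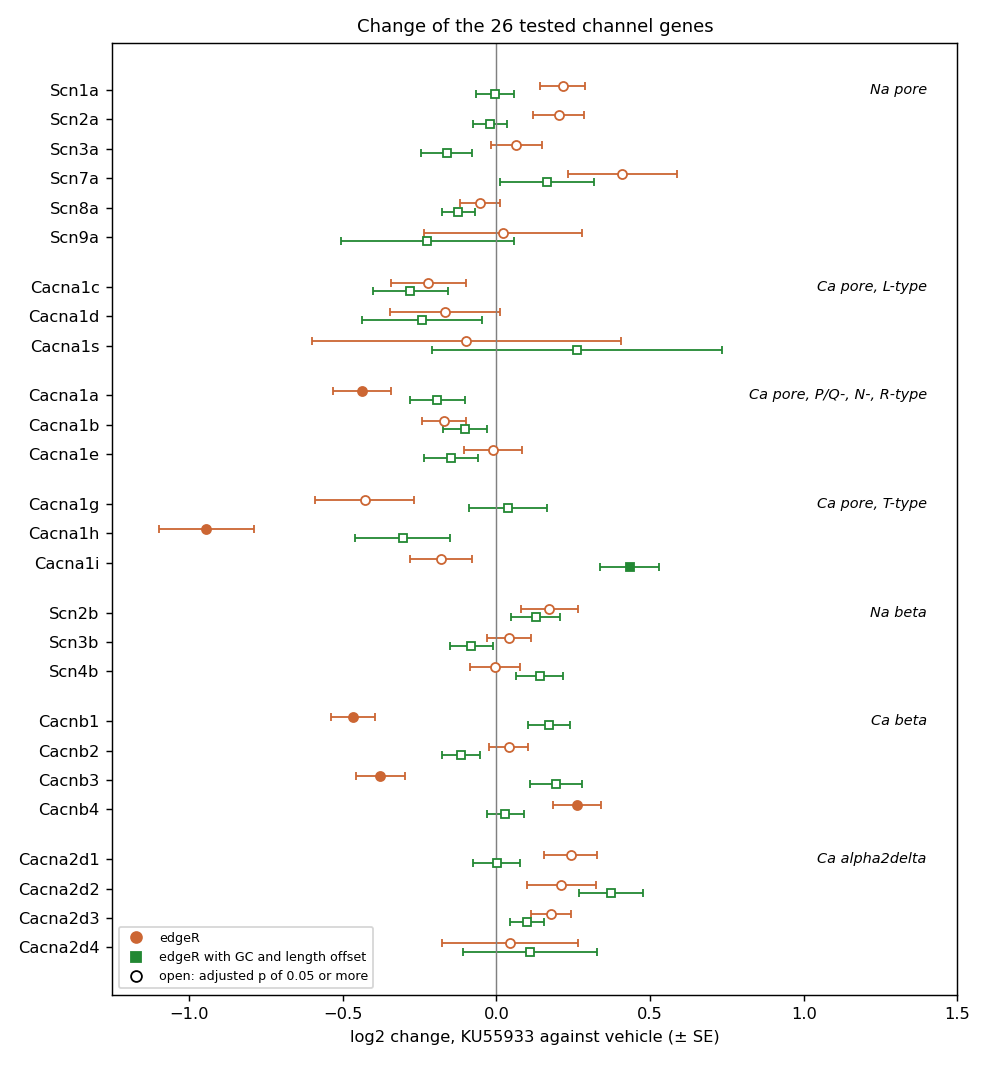
Log2 change of the 26 tested channel genes, KU55933 against vehicle, with standard error, by subunit class; circles are the fit without offset, squares the fit with the GC and length offset, filled where the adjusted p was under 0.05. Cacnb1, Cacnb3, Cacna1a, Cacna1h and Cacnb4 are filled without the offset, and Cacna1i alone with it.

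Among sodium channel pore genes none of the 6 tested was called in either fit with all libraries. An unadjusted p under 0.05 was reached by 3 without the offset and 1 with it, beside 5846 and 2460 of all 15481 genes. The median log2 change of these 6 sodium pore genes was 0.13 without and -0.07 with the offset. Scn8a, which encodes the main sodium channel of the axon initial segment and nodes of Ranvier in mature neurons, read 424, 408, 425 and 432 CPM in vehicle replicates 1 to 4 and 396, 429.7, 415 and 386 CPM in KU55933 replicates 1 to 4. Its groups overlapped, with KU55933 replicates 2 and 3 inside the vehicle range. The log2 change was -0.05 ± 0.06 (SE, n = 4 per group; adjusted p = 0.565) without and -0.12 ± 0.05 (adjusted p = 0.305) with the offset.

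Scn2a, the pore of excitatory neurons early in development and later of their unmyelinated axons and dendrites, read 279 to 318 CPM in vehicle and 294 to 363 CPM in KU55933 (log2 change 0.20 ± 0.08, edgeR adjusted p = 0.103, offset -0.02). Scn1a, the pore on which fast-spiking inhibitory interneurons depend, read 110.1, 97.7, 101 and 91.1 CPM in vehicle and 113, 121, 115 and 114 CPM in KU55933. All 4 KU55933 libraries stood above all 4 vehicle libraries, by a small margin over vehicle replicate 1. The edgeR adjusted p of Scn1a was 0.0569 (log2 change 0.22 ± 0.07), and the change was -0.00 ± 0.06 with the offset. Without vehicle replicate 1 it was called, with an adjusted p of 0.0219 and a log2 change of 0.27. It was also called with upper-quartile scaling (adjusted p = 0.0433) and by DESeq2 (0.0257). Scn2a was called without KU55933 replicate 4 (adjusted p = 0.0311), while without KU55933 libraries 1 and 2 together its log2 change was 0.095 (adjusted p = 0.502). Scn3a, an isoform highest in the embryo, read 68.9 to 78.6 CPM in vehicle and 70.7 to 88.2 CPM in KU55933.

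The remaining sodium pore genes were low. Scn7a, the salt-sensing channel of glia, read 3.79 to 4.34 CPM in vehicle and 4.09 to 7.02 CPM in KU55933, where replicates 1 and 2 were highest (log2 change 0.41 ± 0.18, edgeR adjusted p = 0.114, offset 0.16). Without KU55933 replicate 4 it was called (adjusted p = 0.0417), and without KU55933 libraries 1 and 2 together its log2 change was 0.069 (adjusted p = 0.792). Scn9a, known from sensory neurons, read 3.16 to 6.85 CPM in vehicle and 3.98 to 7.05 CPM in KU55933. Both overlapped between groups.

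Of the 3 sodium channel beta genes examined none was called in either fit, and none had an unadjusted p under 0.05 in either. Scn2b, which is joined to the pore by a disulfide bond, read 313 to 375 CPM in vehicle and 335 to 429 CPM in KU55933 (log2 change 0.17 ± 0.09, edgeR adjusted p = 0.194, offset 0.13, and 0.10 without KU55933 libraries 1 and 2). Scn3b, whose product binds the pore without a covalent link, read 331 to 381 CPM in vehicle and 350.3 to 396 CPM in KU55933 (log2 change 0.04 ± 0.07, adjusted p = 0.702). Scn4b, whose product gives the blocking peptide of resurgent current, read 20.7 to 24.5 CPM in vehicle and 21.3 to 23.2 CPM in KU55933 (log2 change -0.00 ± 0.08, adjusted p = 0.976). The groups overlapped in each of these.

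Of the L-type calcium pore genes none was called in either fit with all libraries, and none had an unadjusted p under 0.05 without the offset. Cacna1c, the larger L-type source in brain, read 169, 209, 204 and 255 CPM in vehicle and 168, 211, 166 and 172 CPM in KU55933. In KU55933 replicate 2 stood above the other 3, and the groups overlapped (log2 change -0.22 ± 0.12, edgeR adjusted p = 0.214, offset -0.28 ± 0.12 with 0.298). Without vehicle replicate 1 the offset fit called it lower (log2 change -0.38, adjusted p = 0.0476). Cacna1d, the L-type pore that opens at more negative voltages, read 57.5, 82.5, 81.5 and 93.8 CPM in vehicle and 52.3, 85.9, 63.2 and 79.5 CPM in KU55933. Replicate 1 was lowest in both groups (log2 change -0.17 ± 0.18, adjusted p = 0.53, offset -0.24). Of Cacna1d counts in vehicle, 31.9% and 24.4% were on ENSMUST00000225717 and ENSMUST00000223573, transcripts annotated as retaining an intron. Coding transcripts ENSMUST00000238504 and ENSMUST00000238675, with 23.4% and 12.3%, had no sequence in GENCODE M21. The length and GC content used for Cacna1d thus come from its other transcripts. Cacna1s, the pore of skeletal muscle, stayed under 1 CPM (0.169 to 0.79) in every library.

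Of the 3 P/Q-, N- and R-type pore genes 1 fell without the offset, Cacna1a, the P/Q-type pore that triggers fast transmitter release. It read 149.8, 153, 173 and 198 CPM in vehicle and 116, 127, 132 and 122 CPM in KU55933. The highest KU55933 library lay below the lowest vehicle library, and the vehicle group was the more spread. The mean was 1.35-fold higher in vehicle (log2 change -0.44 ± 0.09, edgeR adjusted p = 0.0099). The adjusted p was at most 0.0353 with each library left out in turn, and 0.0838 without KU55933 libraries 1 and 2 together, where the log2 change was -0.40. With the offset the change was -0.19 ± 0.09 (edgeR adjusted p = 0.329).

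The N-type and R-type pores were not called. Cacna1b, the N-type pore, read 129, 139, 152 and 148 CPM in vehicle and 125, 133, 121 and 126 CPM in KU55933 (log2 change -0.17 ± 0.07, edgeR adjusted p = 0.106, offset -0.10). Only KU55933 replicate 2 reached into the vehicle range. Cacna1e, the R-type pore, had the highest counts of the 29 genes, with 594 to 711 CPM in vehicle and 559.9 to 746 CPM in KU55933 (log2 change -0.01 ± 0.09, adjusted p = 0.944). Vehicle lay within the KU55933 range. With the offset the 3 genes had a median log2 change of -0.15 and none was called.

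Of the 3 T-type pore genes 1 fell, Cacna1h, which encodes a low-voltage-activated channel found widely in brain. It read 125, 171, 161 and 219 CPM in vehicle and 75.2, 88, 88.6 and 99.6 CPM in KU55933. The groups did not overlap, and vehicle replicate 4 was the highest by a wide margin. Mean expression was 1.92-fold higher in vehicle, and the log2 change of -0.94 ± 0.15 was the lowest of the 26 genes (edgeR adjusted p = 0.00284). The call held with each library left out in turn (adjusted p at most 0.0133), but not without KU55933 libraries 1 and 2 together (log2 change -0.84, adjusted p = 0.0535). With the offset it was -0.31 ± 0.15 (adjusted p = 0.371).

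Cacna1g, the T-type pore of thalamic burst firing, read 68, 65.4, 95.4 and 68.6 CPM in vehicle and 40.6, 55.3, 58.1 and 66.9 CPM in KU55933. The groups overlapped because KU55933 replicate 4 lay above vehicle replicate 2 (log2 change -0.43 ± 0.16, edgeR adjusted p = 0.0829, offset 0.04). Without KU55933 replicate 4 it was called (log2 change -0.53, adjusted p = 0.0475), as it was by DESeq2 with all libraries (0.0376), and without KU55933 libraries 1 and 2 together the log2 change was -0.25 (adjusted p = 0.37). Cacna1i, the slowest of the 3 T-type pores, read 102, 77.3, 89.8 and 90.9 CPM in vehicle and 85.7, 72.9, 88.1 and 70.8 CPM in KU55933. KU55933 replicates 1 and 3 lay inside the vehicle range (log2 change -0.18 ± 0.10, adjusted p = 0.22). With the offset its sign turned, to 0.43 ± 0.10 (edgeR adjusted p = 0.0486). That call was made in 2 of the 8 runs that left out 1 library. It was not made without vehicle replicate 2, 3 or 4 or KU55933 replicate 1, 2 or 3, where the adjusted p reached 0.156.

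**Figure D2:**
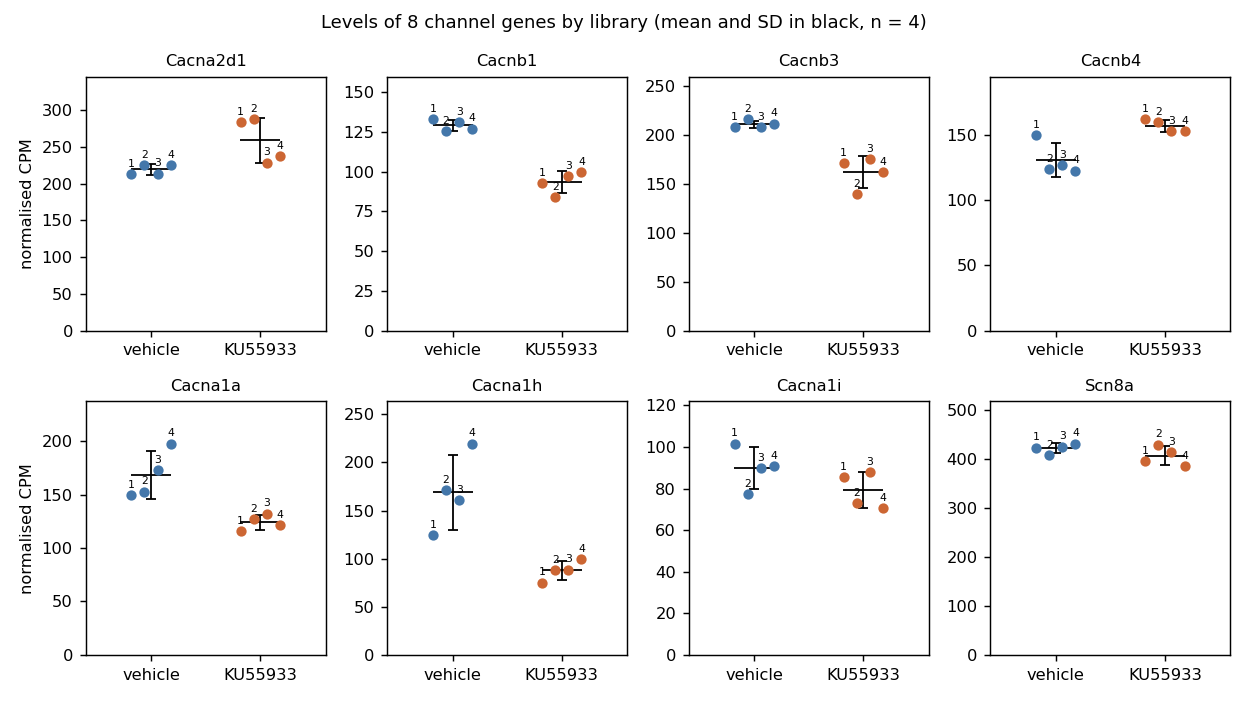
Normalised CPM of 8 channel genes in each library, vehicle in blue and KU55933 in orange; small digits are replicate numbers and black bars the mean and SD (n = 4). Cacnb1, Cacnb3, Cacna1a and Cacna1h are lower and Cacnb4 and Cacna2d1 higher in KU55933 with no overlap, while Cacna1i and Scn8a overlap.

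Of the 4 calcium channel beta genes 3 were called, 2 lower and 1 higher. Cacnb1, the beta subunit also used in skeletal muscle, read 133, 125, 131 and 127 CPM in vehicle and 92.9, 83.7, 96.9 and 99.6 CPM in KU55933. All KU55933 libraries were below all vehicle libraries, and both groups were narrow (log2 change -0.47 ± 0.07, edgeR adjusted p = 0.00167). With each library left out in turn the adjusted p was at most 0.00859, and with the offset the change was 0.17 ± 0.07 (adjusted p = 0.257). Cacnb3, a beta subunit abundant in brain, read 207, 215, 207 and 211 CPM in vehicle and 171, 139, 175 and 162 CPM in KU55933. KU55933 replicate 2 was lowest and the groups did not overlap (log2 change -0.38 ± 0.08, adjusted p = 0.00849, at most 0.0292 with a library left out). With the offset it was 0.19 ± 0.08 (adjusted p = 0.297). Both calls also held without KU55933 libraries 1 and 2 together, at adjusted p = 0.0119 for Cacnb1 and 0.0326 for Cacnb3.

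Cacnb4, the beta subunit whose loss causes seizures and ataxia in the lethargic mouse, went the other way. It read 149.7, 124, 127 and 123 CPM in vehicle and 162, 159.8, 153 and 153 CPM in KU55933. Vehicle replicate 1 stood above the other vehicle libraries and below every KU55933 library (log2 change 0.26 ± 0.08, edgeR adjusted p = 0.037). The call was lost in 6 of 8 runs, those without vehicle replicate 2, 3 or 4 or KU55933 replicate 1, 2 or 3, with an adjusted p of up to 0.117, and with no filter on low counts (0.0519). It was also lost without KU55933 libraries 1 and 2 together (log2 change 0.23, adjusted p = 0.171). With the offset the change was 0.03 ± 0.06 (adjusted p = 0.853). Cacnb4 has the lowest GC content of the 26 genes, 39.6%. Cacnb2, the main cardiac beta subunit, read 68.8 to 73.9 CPM in vehicle and 69.2 to 75.1 CPM in KU55933 (log2 change 0.04 ± 0.06, adjusted p = 0.679).

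Of the 4 alpha2delta genes none was called in either fit. An unadjusted p under 0.05 was reached by 2 without the offset and 1 with it, beside 5846 and 2460 of all 15481 genes. All 4 alpha2delta log2 changes were above 0. Cacna2d1, a binding site of gabapentin, read 213, 226, 214 and 225 CPM in vehicle and 284, 288, 229 and 237 CPM in KU55933. KU55933 replicates 1 and 2 were well above every vehicle library and replicates 3 and 4 only slightly so (log2 change 0.24 ± 0.09, edgeR adjusted p = 0.0684, offset 0.00). Leaving out KU55933 replicate 3 or 4 gave a call (lowest adjusted p 0.0404), as did DESeq2 (0.0338). Without replicates 1 and 2 together the log2 change was 0.092 (adjusted p = 0.395). Cacna2d3 read 105, 96.1, 99 and 97.2 CPM in vehicle and 118, 110.0, 114 and 108 CPM in KU55933, again without overlap (log2 change 0.18 ± 0.06, adjusted p = 0.0699, offset 0.10), and was called without vehicle replicate 1 (adjusted p = 0.0477), with upper-quartile scaling (0.0452) and by DESeq2 (0.024). Cacna2d2, the subunit lost in the ducky mouse, read 18.8 to 24.7 CPM in vehicle and 23.4 to 28.8 CPM in KU55933, with a log2 change of 0.21 that was 0.37 ± 0.11 with the offset (adjusted p = 0.114). Cacna2d4, known from photoreceptors, stayed at 1.58 to 3.07 CPM.

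The log2 change followed the GC content of the genes. Across the 26 channel genes, which share the same 8 libraries, Pearson's r was -0.76 and Spearman's rho -0.80. Across 15470 genes with a GC value these were -0.58 and -0.71. With the offset they were 0.30 and 0.28 for the channel genes and -0.01 and -0.02 for all genes. The offset was fitted to remove the GC trend over all these genes, so their values with it were set in advance. The 4 channel genes that fell have a GC content of 55.6% to 59.8%. Another 3 at or above 55.6%, Cacna1g, Cacna1i and Cacna1s, were not called lower.

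**Figure D3:**
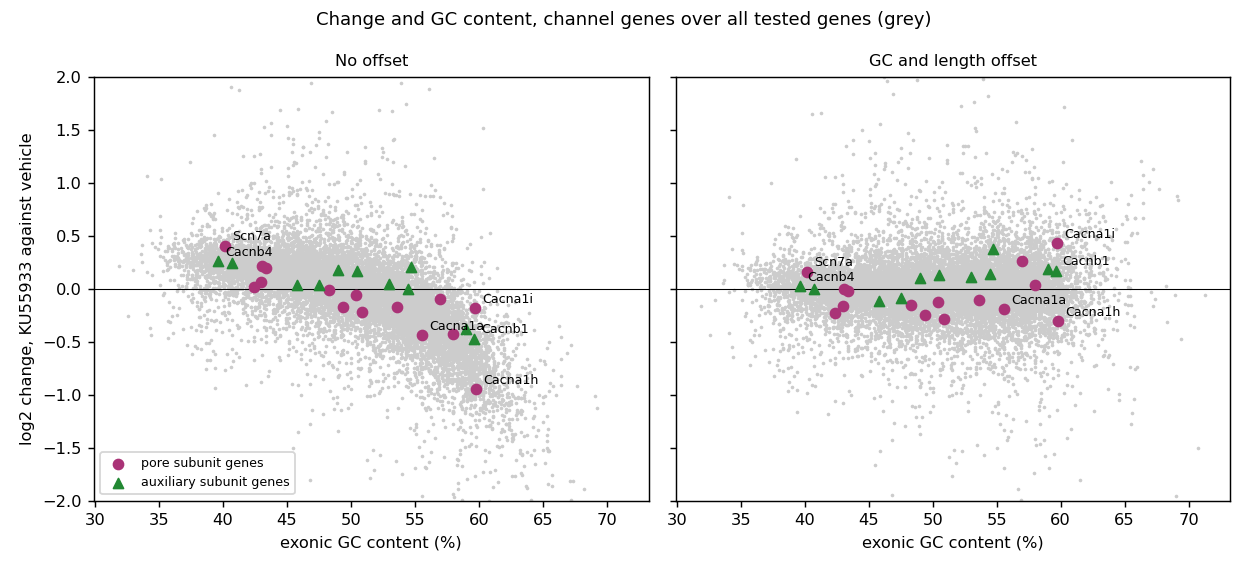
Log2 change (KU55933 against vehicle) against exonic GC content for pore genes (circles) and auxiliary genes (triangles) over all tested genes (grey), without offset (left) and with the GC and length offset (right); axes stop at a log2 change of 2 in either direction, which leaves out 64 and 40 genes. The channel genes slope downward on the left (r = -0.76) and not on the right (r = 0.30).

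Levels between genes were compared per length, as CPM per kilobase of transcript, with the length weighted by the abundance of the gene's transcripts. In vehicle the order was led by auxiliary subunits: Scn3b at 94.8 ± 5.66 CPM per kilobase (SD, n = 4), Cacnb3 at 84.8 ± 1.59 and Scn2b at 71.8 ± 6.25. The ranges of these 3 did not overlap with the next gene down. The most abundant pore genes were Cacna1a (47.5 ± 6.24), Cacna1e (44.9 ± 3.37), Scn8a (40.2 ± 0.943) and Scn2a (38.0 ± 2.34), and among ranks 4 to 8, which include Cacnb1, each gene's range overlapped with the next. From rank 9 (Cacna2d1, 32.9 ± 1.05) to rank 17 (Cacnb4, 17.1 ± 1.67) the genes likewise overlapped with their neighbours in this run. Between them, by mean, were Cacna1h, Cacna2d3, Cacna1g, Cacnb2, Cacna1d, Cacna1c and Cacna1b. Neighbours among these have no firm order, but genes further apart can be separate. The vehicle range of Cacna2d3 (27.1 to 29.5) lay above that of Cacnb2 (20.1 to 21.6). Scn1a, Cacna1i and Scn3a followed between 13.1 and 8.91, then Scn4b at 4.47 and Cacna2d2 at 4.42. The last 4, Cacna2d4, Scn9a, Scn7a and Cacna1s, were at 0.592 or less. With the longest transcript's length in place of the weighted one, 16 of the 26 levels moved by at least their SD and 4 by over 1.5 times. Of these 4 Cacna1a was at 21.2, Cacna1g at 8.87, Cacna1d at 8.16 and Cacna1s at 0.0851 CPM per kilobase.

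**Figure D4:**
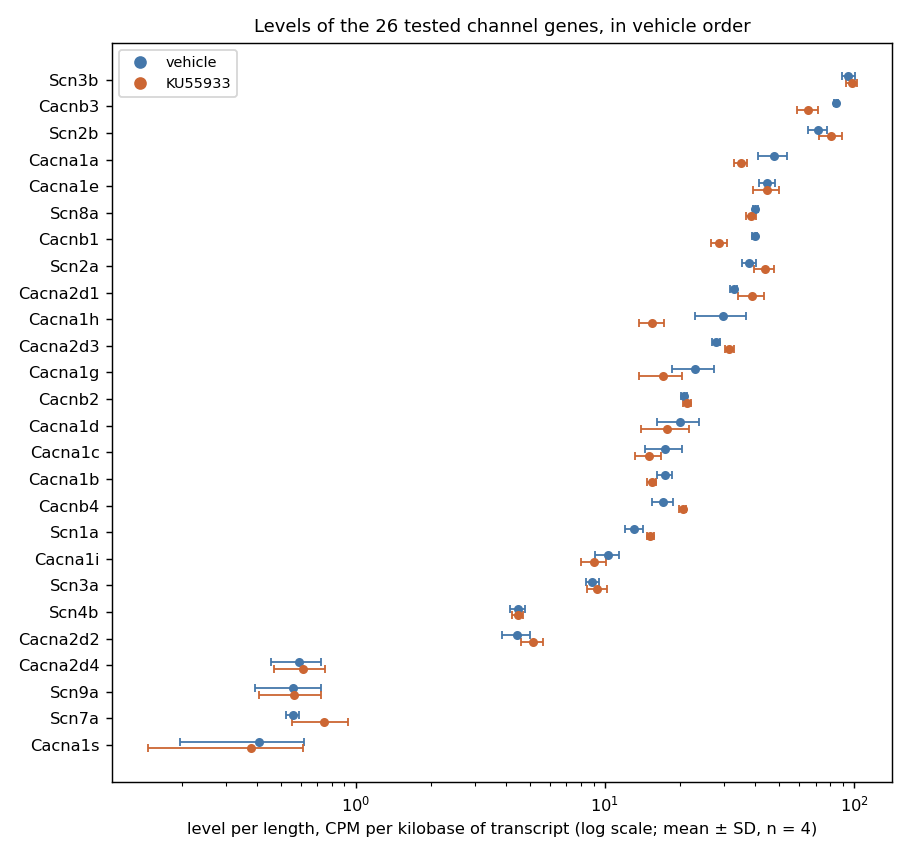
Levels per length of the 26 tested channel genes (CPM per kilobase of transcript, log scale; mean and SD, n = 4), ordered by the vehicle mean, vehicle in blue and KU55933 in orange. Scn3b is highest at 94.8 in vehicle and 97.6 in KU55933, and the last 4 genes lie below 1.

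Sums per length are given as descriptions of each class. The 3 sodium beta genes summed to 171 ± 8.78 CPM per kilobase in vehicle and 183 ± 6.23 in KU55933, and the 4 calcium beta genes to 162 ± 1.35 and 136 ± 7.59. The 4 alpha2delta genes summed to 65.8 ± 0.774 and 76.2 ± 5.20, the other direction. Among pores, T-type genes summed to 63.0 ± 7.40 and 41.6 ± 4.57, P/Q-, N- and R-type to 109.8 ± 10 and 95.0 ± 7.04, L-type to 37.9 ± 6.57 and 33.2 ± 5.28, and sodium pores to 101 ± 3.26 and 108 ± 6.10. These sums were not offset for GC content and were not tested.

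Shares within classes are given likewise as descriptions, not offset for GC content and not tested. The GC content of Cacnb4, Cacnb3 and Cacnb1 was 39.6%, 59.0% and 59.6%. With the offset the log2 changes of these 3 genes were 0.03, 0.19 and 0.17. Of the level per length of the 4 beta subunits of calcium channels, Cacnb4 made up 10.5% ± 0.945 in vehicle and 15.1% ± 1.18 in KU55933, Cacnb3 at 52.2% ± 1.2 and 47.9% ± 2.24, and Cacnb1 at 24.5% ± 0.550 and 21.2% ± 0.753. Cacna1h made up 47% ± 7.17 of the T-type level in vehicle and 37.2% ± 1.0 in KU55933. Scn8a made up 40.1% ± 1.45 and 36.2% ± 1.07 of the sum of Scn1a, Scn2a, Scn3a and Scn8a. The groups did not overlap in these shares. Scn2a made up 37.9% ± 1.08 and 40.8% ± 2.19 of the same sum, with overlap.

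Transcripts were fitted separately, with adjustment over 45343 transcripts. Salmon apportions reads shared by the transcripts of a gene, and the error of that step is not part of the values below. Of 126 channel transcripts tested, 7 fell and none rose by edgeR (4 had a log2 change above 0 at an unadjusted p under 0.05), beside 6.76% of all transcripts (5.7% lower and 1.06% higher). With the offset 3 fell and 1 rose, beside 2.06% of all transcripts (1.01% lower and 1.05% higher). The 3 transcripts called in the same direction in both fits were 1 each of Cacnb1, Cacna1h and Scn8a.

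Cacnb1 ENSMUST00000107562, which carries the alternative coding end printed above, had 149, 94, 146 and 148 counts in vehicle (2.32 to 3.67 CPM) and 0 in each KU55933 library. Against a floor of 3 counts per library this is at least 38.0-fold lower. The floor covers counting error only. The edgeR adjusted p was 0.00202 without and 0.00322 with the offset. With a replicate block and no offset it was 0.0582. This minor transcript gave 2.48% ± 0.451 of Cacnb1 counts in vehicle. The main transcript, ENSMUST00000017552, gave 95.1% ± 1.05 in vehicle and 98.1% ± 0.144 in KU55933 and followed the gene, at 119 to 127 CPM in vehicle and 82 to 97.8 CPM in KU55933 (log2 change -0.45 ± 0.08, adjusted p = 0.0121, offset 0.52 with 0.0588). That call was not made without KU55933 replicate 1 or 2 or with RLE scaling (adjusted p of up to 0.104 over all runs).

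Scn8a was not called as a gene, but its transcript with the 30-base exon extension printed above was. ENSMUST00000108909 read 12.7, 8.58, 14.9 and 26.2 CPM in vehicle and 1.46, 0.705, 3.94 and 0.874 CPM in KU55933. The groups did not overlap, though both were spread (log2 change -3.17 ± 0.61, edgeR adjusted p = 0.0198, offset -3.16 ± 0.60 with 0.0408). Over 13 runs of the per-transcript fit its call was lost in 5, those without vehicle replicate 3 or 4 or KU55933 replicate 1, 2 or 4, with an adjusted p of up to 0.0788. Beyond the extension this transcript has 165 noncoding first-exon bases of 82.4% GC that the main one lacks. The main transcript, ENSMUST00000108910, read 366 to 384 CPM in vehicle and 367 to 396 CPM in KU55933 (log2 change -0.02 ± 0.06, adjusted p = 0.934).

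**Figure D5:**
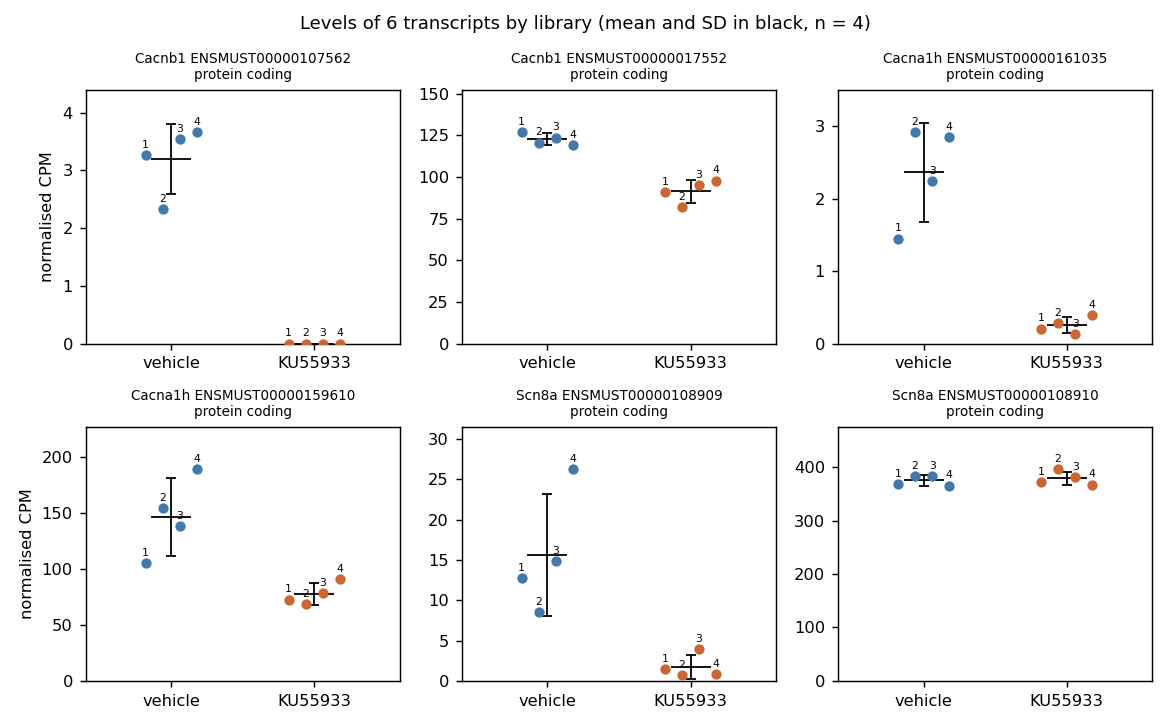
Normalised CPM of 6 transcripts of Cacnb1, Cacna1h and Scn8a in each library, vehicle in blue and KU55933 in orange; small digits are replicate numbers and black bars the mean and SD (n = 4). Cacnb1 ENSMUST00000107562 is at 0 in all KU55933 libraries, and of the 6 only Scn8a ENSMUST00000108910 overlaps between groups.

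The other called transcripts belonged to Cacna1h, Cacnb3, Cacna1a and Cacna1i. The main Cacna1h transcript, ENSMUST00000159610, read 105 to 189 CPM in vehicle and 68.5 to 90.5 CPM in KU55933 (log2 change -0.94 ± 0.16, edgeR adjusted p = 0.012). Its offset change was 0.00, and the call was lost without KU55933 replicate 1 or 2. A short Cacna1h coding transcript of 879 bases, ENSMUST00000161035, read 1.45, 2.92, 2.24 and 2.85 CPM in vehicle and 0.205, 0.282, 0.133 and 0.395 CPM in KU55933. It was lower in each KU55933 library and was called in all 13 runs (log2 change -3.24 ± 0.41, adjusted p = 0.00479, offset -2.10 with 0.0351).

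Cacnb3 ENSMUST00000230490, the main one, read 158 to 167 CPM in vehicle and 104 to 135 CPM in KU55933 (log2 change -0.40 ± 0.10, edgeR adjusted p = 0.0474, offset 0.47 with 0.13). Its call was lost with any 1 library left out, at an adjusted p of up to 0.278 over all runs. Cacna1a ENSMUST00000238701, for which GENCODE M21 gave no sequence and which thus had no offset, read 2.92 to 9.13 CPM in vehicle and 0.789 to 2.69 CPM in KU55933 (log2 change -2.06 ± 0.46, adjusted p = 0.0347). It was called in 6 of 13 runs. The main Cacna1a transcript, ENSMUST00000121390, was not called (51.5 to 89.1 and 47.4 to 55.9 CPM, log2 change -0.41 ± 0.15, adjusted p = 0.17). Cacna1i ENSMUST00000160424, with 99.0% ± 0.473 of the gene's counts in vehicle, was called higher with the offset only (log2 change 0.64 ± 0.10, adjusted p = 0.0223). These are nearly the same counts as the gene's, whose offset change was 0.43. The offset was fitted separately for genes and for transcripts. The genes Cacnb1, Cacnb3 and Cacna1h were at 0.17, 0.19 and -0.31 with it, unlike their main transcripts. No library was left out of the transcript fit with the offset. The main Cacnb4 transcript, ENSMUST00000102760, was not called (72.6 to 87.5 and 80.3 to 108 CPM, adjusted p = 0.569).

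Proteins that work with these channels were read from a list of genes, of which 35 were found by symbol and 34 were tested. Of these 7 fell and 3 rose, with a median log2 change of -0.02, beside the 14.6% and 6.92% of all genes. With the offset none fell and 1 rose. Of 8 genes of the axon initial segment and sodium channel partners, 1 fell and 1 rose, and none was called with the offset. Sptbn4, the spectrin of the axon initial segment, measured 196 ± 51.6 CPM in vehicle against 94.1 ± 19.0 in KU55933 (SD, n = 4; log2 change -1.06, edgeR adjusted p = 0.00938, offset 0.09 with 0.807). Fgf12, an intracellular fibroblast growth factor homologue that binds the sodium channel tail, was at 73.3 and 103 CPM (log2 change 0.50, adjusted p = 0.0208, offset 0.30 with 0.298).

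Of 23 tested calcium channel partners 6 fell and 1 rose, and with the offset none fell and 1 rose. Cacng8, a relative of the muscle calcium channel gamma subunit that acts on AMPA receptors in brain, measured 89.4 ± 19.7 CPM in vehicle against 44.5 ± 4.25 in KU55933 (log2 change -1.0, edgeR adjusted p = 0.00156). With the offset it was called in the other direction (0.52, adjusted p = 0.0105). Calm3, which encodes calmodulin, was at 1705 and 1244 CPM (log2 change -0.45, adjusted p = 0.00574, offset -0.01). Rem2, a GTPase that inhibits calcium channels, and Stac2, an adaptor of L-type channels, each fell by 0.34 on the log2 scale (adjusted p = 0.0251 and 0.0353), with offset values of -0.06 and 0.14. Of the 3 genes of the sodium leak channel complex found by symbol, 1 rose and none fell, and none was called with the offset. Nalf1 and Nalf2, also listed, were not found by symbol.

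Marker lists were read beside these values. In bulk tissue, fewer cells of a type and less RNA per cell cannot be told apart. Markers of hippocampal fields were present in every library: the 5 dentate granule markers summed to 349 to 552 CPM in vehicle and 327 to 405 CPM in KU55933, the 5 CA1 markers to 283 to 483 and 251 to 351, and the 5 CA3 and CA2 markers to 1021 to 1251 and 934 to 1110. Of these, 1 dentate, 2 CA1 and 2 CA3 and CA2 markers were called lower and none higher. Calls in these and the following lists are from the fit without offset, beside 14.6% lower and 6.92% higher over all genes. The 6 interneuron markers summed to 591 to 684 and 614 to 762 CPM (2 lower) and the 5 general neuron markers to 4877 to 5346 and 5049 to 6390 CPM (2 lower, 1 higher).

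Glial and vascular lists also overlapped between groups. Astrocyte markers summed to 1370 to 1603 CPM in vehicle and 1323 to 1649 CPM in KU55933 (1 of 5 lower), oligodendrocyte markers to 3236 to 7367 and 3887 to 5306 (none of 5 called) and oligodendrocyte precursor markers to 205 to 300 and 187 to 265 (2 of 4 lower). Microglial markers summed to 178 to 219 and 169 to 213 CPM (none of 4 called), endothelial markers to 148 to 171 and 133 to 171 (1 of 4 lower) and mural cell markers to 141 to 210 and 154 to 213 (none of 4 called).

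Lists for tissue outside the hippocampus proper were read as well. The choroid plexus sum was 50.4 to 110.9 CPM in vehicle and 57.4 to 1239 CPM in KU55933 (1 of 6 markers called higher), with replicates 1 and 2 apart. The sum of 5 markers of thalamic and other subcortical neurons was 69.6 to 90.4 CPM in vehicle and 88.8 to 118 CPM in KU55933, where 3 of 5 were called higher and replicate 3 lay inside the vehicle range. Their part in the channel values was not tested. Values without KU55933 libraries 1 and 2 are given above for only some of the channel genes. For Scn1a, Cacna2d3, Cacna1c and Cacna1i the log2 changes were then 0.20, 0.16, -0.30 and -0.17 (edgeR adjusted p = 0.179, 0.186, 0.234 and 0.426). Of 5 sensory neuron markers all, of 4 skeletal muscle markers 3 (Myh4, Mylpf, Tnnt3) and of 3 heart markers 2 (Myh6, Tnni3) were under 1 CPM in every library. Skeletal muscle markers summed to 3.93 to 5.04 CPM in vehicle and 2.05 to 2.95 CPM in KU55933, without overlap (1 lower), heart markers to 0.439 to 2.48 and 1.08 to 1.52, and sensory neuron markers to 1.02 to 1.4 and 1.23 to 2.12.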

How the data were processed

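Poly(A)-selected, stranded libraries (TruSeq Stranded mRNA, per the labels) gave estimated counts per transcript, deposited as whole numbers (by the authors with Salmon 1.4.0, per the submitters' processing notes). These notes also name FastQC 0.11.9, DESeq2 1.32.0 and GRCm39. Any filter, and whether quantification used strand, is not given in the sources used here. Columns were matched to samples by title, and groups taken from the labels.

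Counts were summed per Ensembl gene identifier, filtered with filterByExpr, scaled by TMM and tested with edgeR 4.0.16 (robust quasi-likelihood, two-sided, with limma 3.58.1 and R 4.3.3). Of the deposited rows, 12 had no gene name. CPM uses TMM-adjusted totals. GC content and length came from GENCODE M21 (GRCm38), which matched 99.7% of transcripts and 98.9% of the channel genes' counts. Its build is not the authors', so only the printed stretches have coordinates. The offset removed each library's splines on GC content (6 degrees of freedom) and length (5). The test was checked on simulated counts with a single dispersion and no GC or length trend between libraries. That check cannot show how either fit behaves under the GC slopes seen here. No duplicate libraries were found. Where nothing says that libraries came from separate animals, p-values measure only the spread between these samples.

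Of 31 genes that match the rule, 2 are not reported here and enter no count over channel genes. The members and lists were chosen with earlier results of these data known. Genes past an adjusted p of 0.05 in either fit, or the most abundant of a class with none, are given by library; so are their transcripts past it, with the most abundant one, and the 6 partner genes with the smallest p. Values of other channel genes and transcripts were chosen after they were seen. Alternatives were scaling by RLE or upper quartile, no filter, 1 CPM in 4 libraries, DESeq2 1.42.0, limma-voom, a replicate block, offsets, a threshold of 0.1 and left-out libraries.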

Additional observations from a re-analysis of the deposited data

Results flagged for a closer look

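Among the 91 groups of 4 values checked for a single library far from the rest, 6 had one whose gap to its nearest neighbour as a share of the group's range exceeded Dixon's 95% critical value, and chance gives about 1 in 20. In the vehicle group, replicate 1 was high for Cacnb4 at 149.7 CPM (others 122.6 to 126.9), as was its share of the calcium beta level at 11.9% (others 9.96% to 10.2%), and for Scn2a at 318 CPM (others 279 to 285). Vehicle replicate 3 was high for Cacna1g at 95.4 CPM (others 65.4 to 68.6), and vehicle replicate 2 for the partner gene Stac2 at 77.9 CPM (others 69.5 to 70.8). In the KU55933 group, replicate 2 was high for Cacna1c at 211 CPM (others 166 to 172).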

How the results depend on the processing

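Results depended mainly on the offset. Main counts were 2 lower and 0 higher pore genes and 2 lower and 1 higher auxiliary genes. With the GC and length offset, 0 pore genes were lower and 1 higher, and 0 auxiliary genes were lower or higher. With GC alone all 4 counts were 0. Without KU55933 libraries 1 and 2, 0 pore genes were lower and 0 auxiliary genes higher. DESeq2, upper-quartile scaling and a threshold of 0.1 each gave 1 higher pore gene, with 3, 2 and 3 higher auxiliary genes. No filter gave 0 higher auxiliary genes. With each library left out, higher calls ran from 0 to 2 in both classes, and with the offset pore calls from 0 to 1 in each direction. The cause of these shifts was not tested. Over all genes 2267 were lower and 1071 higher; the lower and higher counts were 200 and 104 with the offset, 164 and 78 with GC alone, 985 and 105 without KU55933 libraries 1 and 2, and 1446 to 2558 and 151 to 1790 with each library left out (54 to 385 and 24 to 327 with the offset). Higher calls were 692 with no filter, 1797 by DESeq2 and 2172 at a threshold of 0.1. Of the member transcripts 7 were lower and 0 higher; the offset gave 3 and 1, RLE scaling 1 higher, and left-out libraries 2 to 8 lower and 0 to 2 higher.

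The replicate numbers were not taken as pairs, and the values do not settle whether they are. Deviations of same-numbered libraries correlated at 0.294, 0.084, 0.0393 and 0.202, all above 0. Not every library correlated best with its own number. Vehicle replicate 3 correlated better with KU55933 replicate 2 (0.0751), and KU55933 replicate 2 better with vehicle replicate 4 (0.115). With the replicate block 3 pore (Cacna1g added, log2 change -0.43, adjusted p = 0.0326) and 2 auxiliary genes were lower and 0 and 1 higher, 1720 of all genes and 1 member transcript was higher, and Cacnb1 ENSMUST00000107562 had an adjusted p of 0.0582. The replicate block with the offset gave 0 lower and 1 higher pore genes, 0 lower and 1 higher auxiliary genes (Cacna2d2, 0.37, adjusted p = 0.045), and 444 lower and 346 higher genes overall.

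Log2 changes turned sign as follows, with the offset, with GC alone and with the block and offset in turn: Cacna1g 0.038, 0.045 and 0.036; Cacna1i 0.43, 0.48 and 0.43; Cacna1s 0.26, 0.24 and 0.25; Cacnb1 0.17, 0.18 and 0.17; Cacnb2 -0.12, -0.12 and -0.12; Cacnb3 0.19, 0.20 and 0.19; Scn3a -0.16, -0.13 and -0.16; Scn3b -0.082, -0.076 and -0.080; Scn4b 0.14, 0.17 and 0.14; and Scn9a -0.22, -0.19 and -0.20. With the offset and with block and offset, Scn1a was at -0.0048 and -0.0052, and Scn2a at -0.021 and -0.022. Scn4b was at 0.0030 with upper-quartile scaling and Cacna1s at 0.50 without KU55933 libraries 1 and 2. With each library left out, Cacna1e ran from -0.086 to 0.055, Cacna1s from -0.43 to 0.18, Scn4b from -0.036 to 0.049, Cacna2d4 from -0.10 to 0.14 and Scn9a from -0.17 to 0.15. With the offset as well, Cacna2d1 ran from -0.045 to 0.041, Scn1a from -0.038 to 0.022, Cacna1g from -0.019 to 0.15, Cacna1s from -0.0052 to 0.51, Cacna2d4 from -0.035 to 0.20 and Scn2a from -0.045 to 0.0026. At the depth here, changes of the 3 genes with 0 to 7 counts were not detectable.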
